A study of Mus musculus with 6 samples.

Results

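The SLC25 family of mitochondrial carriers was examined in cultured mouse mammary epithelial cells with and without the histone demethylase gene Jarid1b (now Kdm5b). Its members were all array probes whose gene symbol in the platform annotation is Slc25a followed by a number, which gave 76 of 45281 probes, for 46 genes. Of these, 45 probes for 34 genes entered the test, among 17920 tested probes, having been detected on 3 or more of the 6 arrays. Detection means a p under 0.05 in the comparison of a probe with the negative controls of its own array. Slc25a36 was singled out with all its probes because its brightest probe was already known to be lower in cells without Jarid1b. For this gene the KO against WT values are therefore a description, with no test, and support nothing further.

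SLC25 proteins sit mostly in the inner mitochondrial membrane and exchange small molecules between cytosol and matrix, among them ADP and ATP, phosphate, nucleotides, cofactors, amino acids, carboxylates, acylcarnitines and iron. They are built of a repeated module of membrane helices and made in the cytosol, and those of the inner membrane are typically inserted by the TIM22 translocase. A few members lie elsewhere, such as Slc25a17 in the peroxisome and Slc25a46 in the outer mitochondrial membrane. In epithelia that make milk, such carriers supply citrate for lipid synthesis and ATP for secretion. Slc25a33 and Slc25a36 carry pyrimidine nucleotides, which the matrix needs for mitochondrial DNA and RNA.

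The series holds 3 wild-type (WT, Jarid1b+/+) and 3 knockout (KO, Jarid1b-/-) early-passage cultures, harvested before confluence, and in both genotypes the cultures carry the letters A, B and C. Cultures of the same letter are called pairs below. Strain, age and whether every culture had its own donor mouse are not given in the sources used here. The p-values therefore reflect how far these samples vary among themselves, and that variation may be technical. The 6 arrays detected 17033 to 18686 probes each, of which 39 to 45 were SLC25 probes. Kdm5b checked the labels. The log2 intensity of its brightest probe was 7.07, 6.89 and 6.60 in WT cultures A, B and C against 4.42, 4.42 and 4.34 in KO, where it was not detected on any array. Its position against the deletion is not known here. None of the 46 SLC25 genes lay within 50 Mb of Kdm5b in the GRCm38.p6 gene table. Of 8 mammary epithelial markers, 7 were detected on every array, including the keratins Krt5, Krt8, Krt14 and Krt18, while the probe for Epcam was not detected on any.

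KO and WT means lay within 0.25 of each other on the log2 scale for 34 of 45 family probes (75.6%), near the 71% of all tested probes. The brightest probe of Slc25a36 was the 1 probe of 45 beyond 0.5, against 7.07% of all tested probes. In limma's test 0 of 45 probes had an adjusted p under 0.05 (0.0167% of all tested probes did). At an unadjusted p under 0.05, 2 probes were lower in KO, the brightest of Slc25a36 and that of Slc25a30, against 1.77% of all tested probes. None was higher, against 1.26%, and in either direction 3.03% of all probes passed. Without the 3 Slc25a36 probes the count was 1 of 42. That 1 probe, of Slc25a30, passed under some processing alternatives and not under others, such as an offset of 50 or median scaling. With pair letters fitted as a replicate block, 6 of 45 probes had an unadjusted p under 0.05, all lower, against 4.82% of all probes lower and 3.26% higher (8.08% in either direction). Without Slc25a36 it was 5 of 42 (11.9%). These 6 belonged to Slc25a36, Slc25a33, Slc25a51, Slc25a17, Slc25a30 and Slc25a20, and again 0 passed after adjustment, against 0.0223% of all probes. Among them, Slc25a51 passed the detection filter through the group where it is high.

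The direction of the whole family was weak. A log2 difference below 0 was found for 28 of 45 probes (62.2%), where 54% of all tested probes lay below 0. Without the Slc25a36 probes, which were chosen for being lower, it was 25 of 42 (59.5%). When arrays were scaled to the same median it was 25 of 45 (55.6%). The share of all probes below 0 was not computed under that scaling, where their median was -0.0052. Without that scaling, the median was -0.09 on the log2 scale over the family, -0.07 without Slc25a36 and -0.02 over all tested probes. In the separate pairs the family median was -0.04, -0.08 and -0.16 for A, B and C. Arrays of the groups did not overlap for 6 probes, all lower in KO, against 5.3% of all probes lower and 2.84% higher without overlap. Of the 6, 3 were the Slc25a36 probes, and the other 3 of 42 make 7.14%, near the share of all probes. Among those 3, Slc25a51 passed the detection filter through the group where it is high. Of all 45 tested probes, 4 were detected on all 3 WT arrays and on fewer KO arrays, each with a lower mean in KO. Of the 36 probes detected on all 6 arrays, Slc25a36 probes among them, 21 were lower in KO. The share among all probes so detected was not computed. KO was lower in all 3 pairs for 11 of the 42 probes outside Slc25a36 (26.2%), against 19.2% of all probes, and higher in all 3 pairs for 2 of them (4.76%), against 12%.

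**Figure D1:**
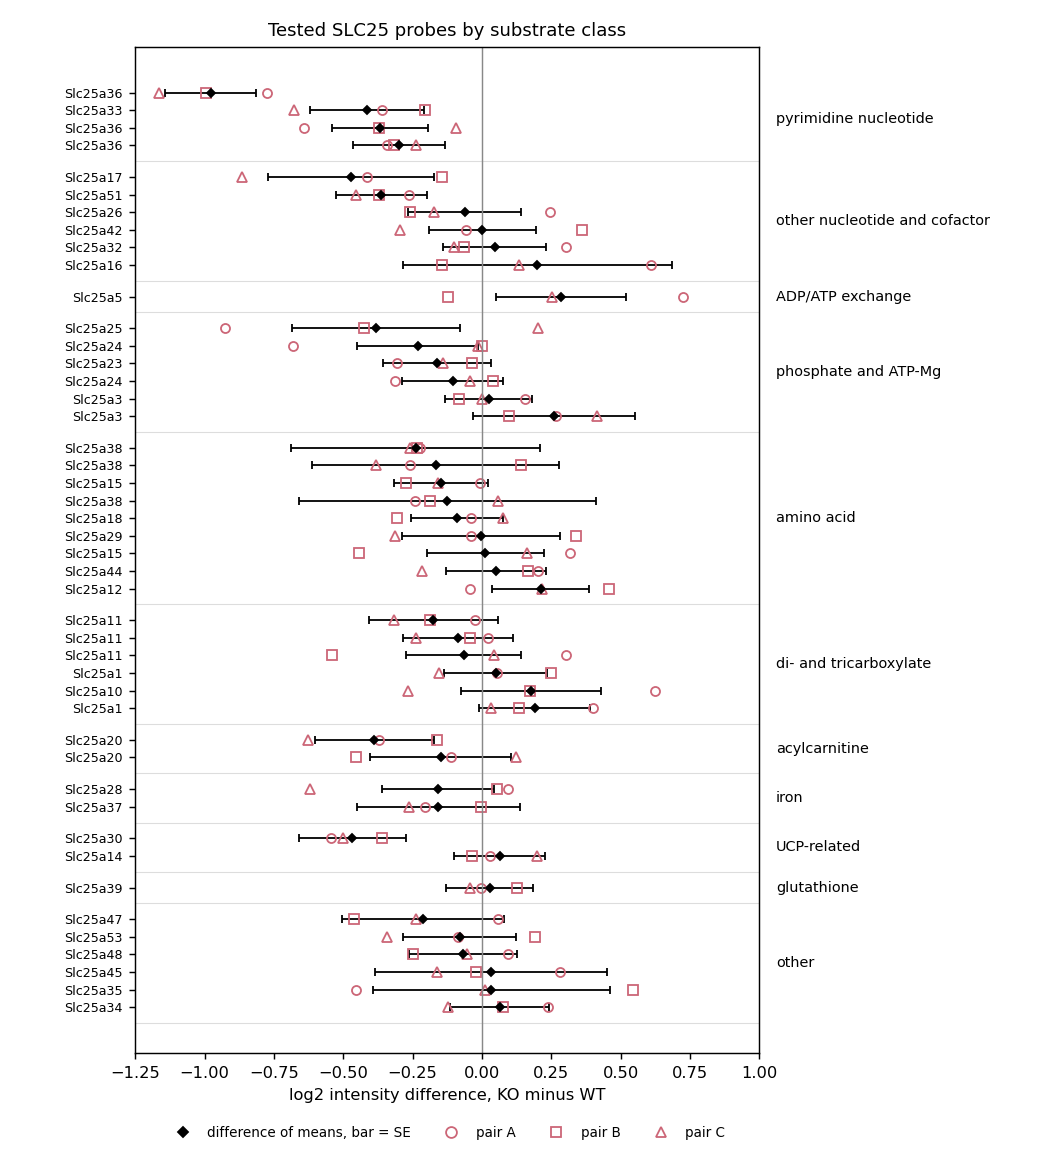
Log2 intensity difference, KO minus WT, for the 45 tested SLC25 probes, grouped by what the carrier transports. Diamonds are differences of group means with their standard error, and open symbols are the differences within pairs A, B and C. In all, 34 probes lie within 0.25 of 0, and the brightest Slc25a36 probe stands at -0.98.

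Slc25a36, a carrier of pyrimidine and guanine nucleotides in humans, had lower values in the KO cultures at each of its 3 probes. The brightest probe read 7.66, 7.68 and 7.72 in WT cultures A, B and C (log2 intensity) and 6.89, 6.68 and 6.56 in the KO cultures. The WT arrays were close to each other and every KO array lay below them. The means were 7.69 ± 0.03 and 6.71 ± 0.17 (SD, n = 3 each), and their log2 difference was -0.98 (SE 0.17), so that the WT signal was 1.97-fold that of KO. Other treatments of the background gave smaller sizes, -0.63 with none subtracted and -0.60 in the authors' deposited value table.

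The other Slc25a36 probes differed in the same direction and by less. The middle probe read 5.93, 5.73 and 5.57 in WT cultures A, B and C and 5.29, 5.36 and 5.48 in KO. The groups did not overlap but came close in pair C, where the difference was -0.09, and the log2 difference of the means was -0.37 (SE 0.17). The dimmest probe read 4.84, 5.04 and 4.80 in WT and 4.50, 4.72 and 4.56 in KO, a difference of -0.30 (SE 0.17). It was detected on all 3 WT arrays and on 2 of 3 KO arrays, close to the limit of detection. Which transcript region each probe reads is not known here, and the difference was -0.55 for the mean of the 3 probes.

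Summed marker levels of several cell types are given beside these values, as descriptions of the arrays. No marker passed in limma after adjustment. At an unadjusted p under 0.05, 3 of 7 tested fibroblast, 2 of 3 muscle and 1 of 12 proliferation markers were higher in KO and none lower. Of all genes by brightest tested probe, 1.49% were higher and 1.76% lower at that level. In the replicate block fit 3 fibroblast, 3 muscle, 3 proliferation, 1 macrophage and 1 endothelial marker were higher and none lower. The shares of all genes were 4% higher and 4.67% lower in that fit. The summed level of the mammary epithelial list was 14.50 to 14.84 in WT and 14.42 to 14.49 in KO (log2 of the summed intensities), and 5 of its 7 tested members were lower in KO. The skeletal muscle list was 7.18 to 7.48 in WT and 7.54 to 9.25 in KO, highest in KO culture B, with higher means in KO for all 3 tested members and with Ckm, Myh1 and Myh4 not detected on any array. Of these 3, Mylpf and Actn3 were each detected on 1 WT and 3 KO arrays, so they entered the test through the group where they are high. The fibroblast list overlapped between groups, at 12.57 to 12.77 in WT and 12.62 to 13.28 in KO, although all 7 tested members had higher means in KO, and Postn was not detected on any array. The endothelial list also overlapped, at 11.18 to 11.35 in WT and 11.20 to 12.36 in KO, highest in KO culture B, and its 5 tested members all had higher means in KO (median 0.46). The part of these markers in the Slc25a36 values was not tested. Of 7 adipocyte markers with a probe, Cidec, Fabp4, Plin1, Retn and Ucp1 were not detected on any array. The other markers, Adipoq and Lep, were each detected on 5 arrays, with differences of 0.13 (SE 0.24) and -0.35 (SE 0.24). In RNA from whole cultures, fewer cells of a type and less RNA per cell cannot be told apart.

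**Figure D2:**
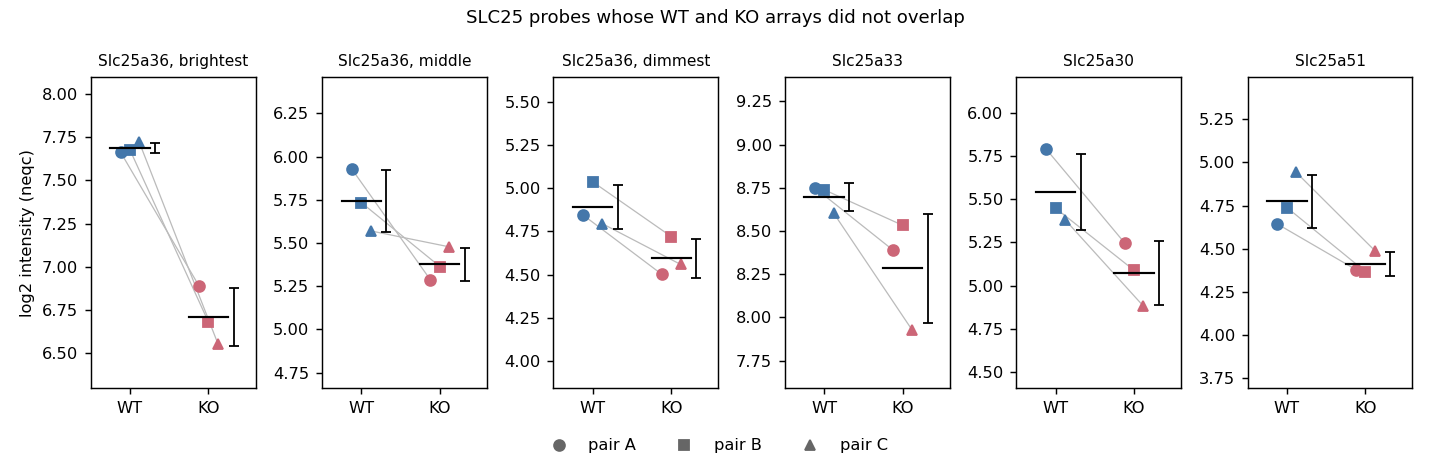
Log2 intensity on each array for the 6 tested SLC25 probes whose WT and KO values did not overlap, with grey lines joining cultures of the same pair letter, black bars at the group means and error bars of 1 SD (n = 3 each). All panels span the same range of log2 units. The brightest Slc25a36 probe shows the widest gap, from 7.66 at the lowest WT array to 6.89 at the highest KO array.

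The start regions of the pyrimidine carrier genes are shown because Slc25a36 is the gene singled out and Slc25a33 is its closest counterpart by substrate. They are from RefSeq (GRCm38.p6), run from 250 bases before to 50 bases after the start of the gene, and lie at chr9:97110992-97111291 (minus strand) for Slc25a36 and chr4:149774218-149774517 (minus strand) for Slc25a33. Capitals mark the E-box CACGTG, the cAMP response element TGACGTCA and the CCAAT box, searched on both strands as CCAAT or ATTGG.
Slc25a36: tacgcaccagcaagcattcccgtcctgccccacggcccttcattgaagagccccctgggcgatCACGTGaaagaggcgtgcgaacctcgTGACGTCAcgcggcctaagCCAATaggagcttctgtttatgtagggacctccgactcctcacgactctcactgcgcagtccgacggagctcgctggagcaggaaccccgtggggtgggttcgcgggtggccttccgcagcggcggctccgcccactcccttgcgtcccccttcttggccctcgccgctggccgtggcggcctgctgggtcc
Slc25a33: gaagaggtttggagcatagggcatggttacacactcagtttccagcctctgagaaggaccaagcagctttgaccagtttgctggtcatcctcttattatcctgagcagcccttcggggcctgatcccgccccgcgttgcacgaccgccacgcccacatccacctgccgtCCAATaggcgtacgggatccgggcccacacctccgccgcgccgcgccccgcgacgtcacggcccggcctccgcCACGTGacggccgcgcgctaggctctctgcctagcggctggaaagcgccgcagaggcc

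Both windows hold the E-box and the CCAAT box, and that of Slc25a36 also holds the cAMP response element. The E-box begins 187 bases before the start in Slc25a36 and 8 bases before it in Slc25a33, and the CCAAT box 142 and 81 bases before it. None of the marked motifs overlap in these windows. Among 32841 promoter windows of this length, 7.15% hold the E-box, 1.79% the cAMP response element, 37.4% the CCAAT box and 2.54% both E-box and CCAAT box. For the SLC25 family, 46 windows of 36 genes were in the table. Of these windows 8 hold the E-box, 22 the CCAAT box and 2 the cAMP response element, the latter in Slc25a25 and Slc25a36. Slc25a1 and Slc25a13 are the other members with both E-box and CCAAT box. The motifs were chosen after the Slc25a36 window had been read, and a match is a run of letters, not a shown binding site.

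Slc25a33, the other pyrimidine nucleotide carrier, had 1 probe, which read 8.75, 8.74 and 8.60 in WT cultures A, B and C and 8.39, 8.53 and 7.93 in KO. All KO arrays lay below all WT arrays, with the lowest value in KO culture C. The log2 difference of -0.41 (SE 0.20) did not pass in limma (adjusted p = 0.9999, or 0.608 in the replicate block fit), and its 95% interval ran from -0.90 to 0.07. It was -0.24 without KO replicate C. That array also stood apart in the T cell marker list, whose summed level was 11.60 there and 6.81 to 8.35 on the other 5 arrays, with Cd8a not detected on any. Their part in the Slc25a33 value was not tested.

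Carriers of other nucleotides and cofactors had no common direction, with 3 of 6 probes lower and a median of -0.03. Slc25a51, the mitochondrial NAD carrier, read 4.64, 4.74 and 4.94 in WT cultures A, B and C and 4.38, 4.37 and 4.49 in KO. It was detected on all 3 WT arrays and on 1 KO array, so it passed the detection filter through the group where it is high. Its difference of -0.36 (SE 0.16, limma adjusted p = 0.9999) was -0.10 without background correction. Slc25a17, a carrier of coenzyme A and related cofactors in the peroxisome, read 5.52, 5.79 and 6.51 in WT and 5.10, 5.64 and 5.65 in KO. The groups overlapped although KO was lower in each pair, and the difference was -0.47 (SE 0.30, adjusted p = 0.9999). Slc25a26, the carrier of S-adenosylmethionine, differed by -0.06 (SE 0.20), Slc25a32, the carrier of folate and FAD, by 0.05 (SE 0.19), and Slc25a42, the coenzyme A carrier, by 0.0018 (SE 0.19).

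Slc25a5, the ADP/ATP carrier of growing cells, had the largest positive difference of the family, and it came from 2 of the 3 pairs. Its probe read 12.07, 12.10 and 12.21 in WT cultures A, B and C and 12.79, 11.98 and 12.46 in KO. KO culture A was the highest array and KO culture B the lowest, so the groups overlapped. The log2 difference was 0.29 (SE 0.23, limma adjusted p = 0.9999), and it was 0.10 when KO replicate A was left out and 0.50 when KO replicate B was. Proliferation markers moved in the same order within pairs. The summed level of 13 markers with a probe was 9.48, 9.93 and 10.85 in WT cultures A, B and C and 11.90, 9.69 and 11.58 in KO, and all 12 tested members had higher means in KO, while Bub1 was not detected on any array. This order within pairs was not particular to Slc25a5. The brighter Slc25a15 probe differed by 0.32, -0.44 and 0.16 in pairs A, B and C, and Slc25a16 by 0.61, -0.14 and 0.14. The part of the proliferation markers in the Slc25a5 values was not tested.

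**Figure D3:**
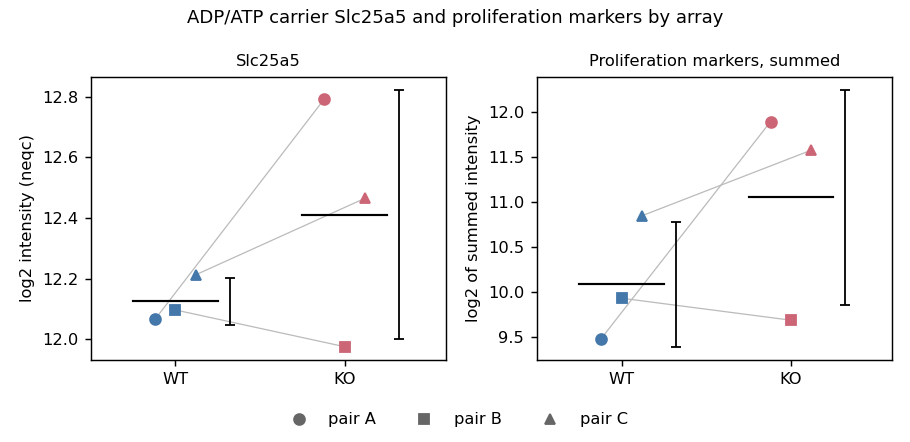
Log2 intensity of the ADP/ATP carrier Slc25a5 (left) and log2 of the summed intensity of the proliferation markers (right) on each array, with lines joining cultures of the same pair letter, bars at the group means and error bars of 1 SD (n = 3 each). The vertical ranges of the panels differ. In both, KO lies above WT in pairs A and C and below it in pair B.

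Carriers of phosphate and of ATP-Mg had 4 of 6 probes lower in KO, with a median of -0.13. Slc25a3, the phosphate carrier that feeds ATP synthase, read 10.32, 10.55 and 10.48 in WT cultures A, B and C and 10.47, 10.46 and 10.48 in KO at its brighter probe. The groups overlapped, and the difference was 0.02 (SE 0.16), with a 95% interval from -0.34 to 0.39. Its dimmer probe read 8.59, 8.13 and 7.73 in WT and 8.86, 8.23 and 8.15 in KO, a difference of 0.26 (SE 0.29). Slc25a25, a calcium-regulated ATP-Mg carrier, read 8.86, 8.95 and 7.98 in WT and 7.94, 8.52 and 8.18 in KO. Its KO value was lower in pairs A and B and higher in pair C, for a difference of -0.38 (SE 0.30). The related Slc25a24 differed by -0.11 (SE 0.18) and -0.23 (SE 0.22) at its probes and Slc25a23 by -0.16 (SE 0.195). None of these 6 probes passed in limma (adjusted p = 0.9999 for each).

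Amino acid carriers differed little by genotype, with all 9 tested probes within 0.25 of 0 on the log2 scale and a median of -0.09. Slc25a12, an aspartate/glutamate carrier of the malate-aspartate shuttle, read 6.40, 6.18 and 6.45 in WT cultures A, B and C and 6.36, 6.64 and 6.66 in KO. The groups overlapped, with a difference of 0.21 (SE 0.18) and a 95% interval from -0.20 to 0.63. The ornithine carrier Slc25a15 differed by 0.01 (SE 0.21) and -0.15 (SE 0.17) at its probes, the basic amino acid carrier Slc25a29 by -0.0034 (SE 0.28), the glutamate carrier Slc25a18 by -0.09 (SE 0.17), and Slc25a44, which carries branched-chain amino acids, by 0.05 (SE 0.18).

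For several carriers the arrays of pair C stood apart from pairs A and B in both genotypes. Slc25a38, the glycine carrier needed for heme synthesis, read 10.11, 10.13 and 8.93 in WT cultures A, B and C and 9.88, 9.89 and 8.67 in KO at its brightest probe. Both cultures of pair C were low, and its other probes read 7.94, 7.93 and 6.35 in WT against 7.70, 7.75 and 6.41 in KO, and 6.81, 6.65 and 5.73 against 6.55, 6.80 and 5.35. On the average of both genotypes, pair C minus the mean of pairs A and B was -1.20, -1.45 and -1.16 at the 3 probes, while KO minus WT was -0.24, -0.12 and -0.17.

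Pair C was high for 3 other carriers. Slc25a16 read 7.27 and 7.41 in WT and KO culture C and 5.80 to 6.41 on the other 4 arrays. Slc25a45 read 7.86 and 7.70 in pair C and 6.49 to 6.77 elsewhere, and Slc25a35 read 6.43 and 6.45 against 5.05 to 5.85. These 6 probes, for 4 genes, were those of the 45 whose pair C mean differed from the mean of pairs A and B by over 1 on the log2 scale (7.59% of all tested probes did so). No SLC25 probe differed by over 1 between KO and WT (0.714% of all probes did). Both pair C arrays lay outside the other 4 for 16 of 45 family probes (35.6%), against 39.9% of all tested probes. No test was made, since a single pair stands against the others.

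**Figure D4:**
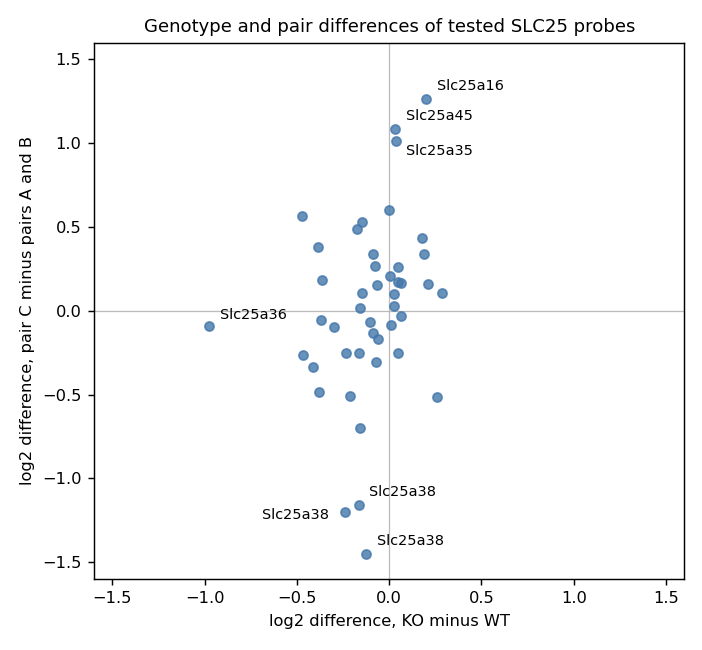
Each point is one of the 45 tested SLC25 probes, placed by its log2 difference between KO and WT (horizontal axis) and between pair C and the mean of pairs A and B (vertical axis), with the same scale on both axes. The brightest Slc25a36 probe, chosen for being lower, stands out on the horizontal axis at -0.98, and the other probes of that gene lie at -0.37 and -0.30. Slc25a38, Slc25a16, Slc25a45 and Slc25a35 stand out on the vertical axis beyond 1 in either direction.

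Carriers of di- and tricarboxylates, which exchange citrate, malate and oxoglutarate, had no common direction, with 3 of 6 probes lower and a median of -0.01. Slc25a1, the citrate carrier that exports citrate for fatty acid synthesis, read 6.82, 6.90 and 7.31 in WT cultures A, B and C and 7.22, 7.03 and 7.35 in KO at its brighter probe. KO was higher in each pair but the groups overlapped, and the differences were 0.19 (SE 0.20) and 0.05 (SE 0.19) at its probes. The dicarboxylate carrier Slc25a10 differed by 0.18 (SE 0.25) and the oxoglutarate carrier Slc25a11 by -0.18 (SE 0.23) at its brightest probe. For the carnitine/acylcarnitine carrier Slc25a20, which brings fatty acids in for oxidation, the brighter probe read 9.26, 9.38 and 9.64 in WT and 9.15, 8.93 and 9.77 in KO. The groups overlapped there, with a difference of -0.15 (SE 0.25). The dimmer probe read 5.99, 5.77 and 6.44 in WT and 5.62, 5.60 and 5.81 in KO, lower in each pair, with a difference of -0.39 (SE 0.21, limma adjusted p = 0.9999, or 0.617 in the replicate block fit).

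Among the remaining carriers, Slc25a30 had separated groups. It encodes a relative of the uncoupling proteins and read 5.79, 5.45 and 5.38 in WT cultures A, B and C and 5.25, 5.09 and 4.88 in KO. Every KO array lay below every WT array, and the differences within pairs ran from -0.54 to -0.36. The log2 difference was -0.47 (SE 0.19, limma adjusted p = 0.9999, or 0.543 in the replicate block fit), and the size fell to -0.16 with no background subtracted and to -0.14 in the authors' deposited value table. Slc25a14, another relative of the uncoupling proteins, differed by 0.06 (SE 0.17). The mitochondrial iron carrier Slc25a37 (mitoferrin 1) read 7.35, 7.37 and 6.74 in WT and 7.15, 7.37 and 6.47 in KO, overlapping groups with a difference of -0.16 (SE 0.29). Its relative Slc25a28 (mitoferrin 2) also differed by -0.16 (SE 0.20), and Slc25a39, linked to glutathione import, by 0.03 (SE 0.16). Slc25a34, Slc25a35, Slc25a45, Slc25a47, Slc25a48 and Slc25a53, for which no substrate class was set, had differences from -0.21 to 0.06.

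Of the 8 genes with more than 1 tested probe, Slc25a15 was the one whose probes differed in sign. The 3 probes of Slc25a11 and of Slc25a38 all had lower means in KO, as did both probes of Slc25a20 and Slc25a24, while both probes of Slc25a1 and Slc25a3 had higher means. The 95% interval of the difference lay within a halving and a doubling (from -1 to 1 on the log2 scale) for 36 of the 45 probes, and the intervals reached a median of 0.48 to either side. The other 9 intervals reached beyond, among them those of the 3 Slc25a38 probes and of Slc25a17 and Slc25a25.

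Undetected probes accounted for the rest of the family. Of 31 probes outside the test, 30 were not detected on any array and 1, the second probe of Slc25a12, was detected on KO culture C alone, where it read 4.57 against 4.24 to 4.52 on the other arrays. Just inside the threshold, with detection on 3 arrays, the probe of Slc25a29 read 4.23 to 5.11 and that of Slc25a48 read 4.29 to 4.73. The 12 genes with no tested probe were Slc25a2, Slc25a4, Slc25a13, Slc25a21, Slc25a22, Slc25a27, Slc25a31, Slc25a40, Slc25a41, Slc25a43, Slc25a46 and Slc25a54. Slc25a4, the ADP/ATP carrier of heart and muscle, Slc25a13, the other aspartate/glutamate carrier, and Slc25a31, the ADP/ATP carrier of germ cells, read 4.15 to 4.34 over all their probes and arrays. A probe at background may be a poor probe, so the absence of these transcripts is not shown.

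Genes that work beside the carriers were spread around 0. Each gene is given by its brightest tested probe, and 1.76% of such genes were lower and 1.49% higher in KO at an unadjusted p under 0.05. In the list of nucleotide supply to mitochondria and maintenance of their DNA, 25 of 29 genes were tested, 11 were lower and 14 higher, and the median was 0.02. In limma 0 of them passed after adjustment and 0 had an unadjusted p under 0.05. In the replicate block fit 1 gene, Rrm1, had an unadjusted p under 0.05 (higher, adjusted p = 0.555), where 4.67% of all genes were lower and 4% higher at that level. The largest differences were those of the ribonucleotide reductase subunits Rrm1 (1.03, SE 0.45) and Rrm2 (0.80, SE 0.51) and of the nucleoside diphosphate kinase Nme4 (0.66, SE 0.35). Rrm1 and Rrm2 are also among the proliferation markers.

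In the list of carrier import, 14 of 18 genes were tested, 6 were lower and 8 higher, with a median of 0.05. Tomm6 of the outer membrane pore differed by 0.46 (SE 0.24), Timm9, a chaperone of carrier precursors, by -0.39 (SE 0.27) and Timm29, a TIM22 subunit, by -0.21 (SE 0.15). Other mitochondrial membrane transporters and SLC25 relatives, without an Slc25a symbol, gave 7 lower and 7 higher of 14 tested among 23 genes, with a median of -0.0048, and Mtch1, an SLC25 relative of the outer membrane, differed by 0.25, Sfxn5 by -0.23 and Oxa1l by -0.22. Both lists had 0 genes at an adjusted p under 0.05 and 0 at an unadjusted p under 0.05 in limma. In the replicate block fit Timm9 (lower, adjusted p = 0.602) and Tomm6 (higher, adjusted p = 0.600) had an unadjusted p under 0.05, and no gene of the transporter list did. Of 25 mitochondrial content genes, 21 were tested, 9 were lower and 12 higher, and the median was 0.06. Vdac2, an outer membrane channel, differed by -0.31 and the ATP synthase subunit Atp5a1 by 0.29. Immt, which shapes the cristae of the inner membrane, read 9.50, 9.48 and 9.77 in WT and 10.20, 9.78 and 10.16 in KO, without overlap. Its difference was 0.47 (SE 0.19, adjusted p = 0.9999), and it was the only one of these 21 at an unadjusted p under 0.05, also in the replicate block fit. Nrf1 of this list (-0.20), Timm29 and Ghitm of the transporter list (-0.09) did not overlap either, each lower in KO. Of all tested probes, 5.3% were lower and 2.84% higher without overlap.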

How the data were processed

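RNA from 3 WT and 3 KO cultures was hybridised to 1-colour Illumina mouse bead arrays. The authors deposited non-normalized probe intensities with a detection p-value for each probe and array, and a table of log2 values, used here as an alternative. The submitters' processing notes name GenomeStudio and lumi, with versions not given in the sources used here. The deposited intensity values were background-corrected with the detection p-values, quantile normalized and log2 transformed with an offset of 16 (neqc in limma 3.58.1, R 4.3.3). Probes with detection p under 0.05 on at least 3 of 6 arrays were tested by lmFit and eBayes, KO against WT, with Benjamini-Hochberg adjustment over all 17920 probes. The test was tried on simulated data with independent errors for each array. Those data do not hold the correlation between same-letter arrays given below, so the trial says nothing about it. Precision is limited by the number of arrays, 3 per genotype. All columns belonged to a sample (columns with no sample: 0).

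Probes were named from the platform annotation: 34885 had 1 symbol, 18 several and 10378 none. All 46 member genes were found in the GRCm38.p6 gene table. The members and lists were chosen with earlier results of these data known. Values on every array are given for all probes of Slc25a36 and Slc25a33, for the carriers Slc25a1, Slc25a3, Slc25a5, Slc25a12, Slc25a20 and Slc25a37, and for other tested members without overlap between groups (up to 8 per direction). Up to 3 genes per related list were named by smallest unadjusted p. Slc25a16, Slc25a17, Slc25a25, Slc25a35, Slc25a38 and Slc25a45 were added after their values were seen.

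The titles share the letters A, B and C between genotypes but do not say what the letters stand for. A number follows each letter, the same in both genotypes for A and C but not for B, and its meaning is not given either. Arrays of the same letter are called pairs here. Deviations from the group means of same-letter arrays correlated at 0.352, 0.490 and 0.720 over the tested probes for A, B and C, each over 0.1, so a fit with the letter as a replicate block is given where it moves a count. WT A correlated more with KO B (0.423) than with KO A. Other alternatives changed the background correction, offset, normalization, filter, unit of the test, variance moderation, weights, threshold and gene symbols, or left out each array in turn.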

Additional observations from a re-analysis of the deposited data

How the results depend on the processing

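The count of SLC25 probes with an adjusted p under 0.05 was 0 under all 18 alternatives, and the family median stayed below 0, from -0.11 to -0.022, the latter with no detection filter. The count at an unadjusted p under 0.05 was 2 of 45 as reported. It was 1 of 45 with an offset of 50 (1.93% of all probes lower, 1.23% higher) and with median scaling (1.41% and 1.45%). It was 1 of 35 with detection p under 0.01 on all 6 arrays (1.59% and 1.22%). At an unadjusted p under 0.01 it was 1 of 45, and the share of all probes at 0.01 was not computed. With no detection filter the count at an unadjusted p under 0.05 was 5 of 76, where 2.36% of all probes were lower and 1.61% higher. When arrays were weighted it was 5 of 45 (5.16% and 5.11% of all probes). Under the replicate block by pair letter it was 6 of 45 (4.82% and 3.26%). Leaving out 1 array gave 1 to 4 probes (1 without WT replicate A, WT replicate B or KO replicate C) and medians from -0.11 to -0.04. Without WT replicate C it was 4 probes, all lower, against 2.95% of all probes lower and 2.13% higher. Without KO replicate B, 2 probes were lower and 1, Slc25a5, was higher in KO (0.50), against 2.69% of all probes lower and 3.63% higher. The brightest Slc25a36 probe, chosen for being lower, was in each of these family counts. Where a count was 1, no other SLC25 probe passed. The 3 Slc25a36 probes, from brightest to dimmest, differed by -0.63, -0.14 and -0.080 without background correction, by -0.79, -0.21 and -0.13 with an offset of 50, and by -0.60, -0.12 and -0.071 on the authors' deposited table. The mean of the gene's probes gave -0.55. Small differences changed sign for the brighter Slc25a3 probe with array weights (-0.011) and when 1 array was left out. Such values ran from -0.060 (without WT replicate B) to 0.19 for the dimmer Slc25a1 probe, from -0.041 (without WT replicate A) to 0.074 for the brighter Slc25a3 probe, from -0.39 to 0.029 (without KO replicate B) for the brighter Slc25a20 probe and from -0.36 to 0.10 (without KO replicate C) for Slc25a37. The causes were not tested. Dim probes limit the sizes, since background correction and offset set their scale, and some had no value under the stricter filter. Over the 17920 tested probes, counts at an unadjusted p under 0.05 were 543 as reported, 1448 with the replicate block and 1841 with array weights. They were 567 with an offset of 50 and 512 with median scaling. With no detection filter the count was 1797 of 45281, and with the stricter filter 358 of 12741. Leaving out an array gave 254 (WT replicate A), 248 (WT replicate B), 911 (WT replicate C), 637 (KO replicate A), 1132 (KO replicate B) and 584 (KO replicate C).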
